A study of Mus musculus with 9 samples.

Results

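Hmox1, which encodes haem oxygenase 1, was followed together with 9 genes of the Maf family and of the antioxidant programme controlled by the transcription factor Nrf2, in mouse embryonic stem (ES) cells given a microRNA mimic. The genes were Hmox1, Slc7a11, Maff, Mafg, Srxn1, Gclm, Gclc, Nqo1, Txnrd1 and Gsr, 10 of the 19938 genes named on the array, and each was read by 1 probe set. They were listed by name, with results of these same arrays in view: Hmox1, Slc7a11 and Maff had the 1st, 3rd and 4th largest rises of all tested genes from mock to let-7c. From mock to miR-294 Hmox1 had the 5th largest rise. The values of the members are therefore given as a description. Their calls in the fit over all genes are counted with no p printed and are not used as support.

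All cells were Dgcr8 -/- ES cells, which lack a protein needed to make most microRNAs. Cells received let-7c mimic or miR-294 mimic at 50 nM, or a mock transfection, and were kept for 12 h without leukaemia inhibitory factor before harvest. Each of the 3 groups had 3 biological replicates, 1 array each, and the deposited values are used as log2 intensities. A mimic of unrelated sequence was not among the groups, so the response to any transfected RNA cannot be told apart from that to the named one. The sources used here do not say from how many clones the cells came. The Dgcr8 deletion is shared by every group and is tested by no comparison. All 10 ES cell markers lay above the level taken as dim, which is the 40th percentile of all probe sets of an array, in at least 3 arrays. Of the markers of other cell types, 4 of 9 for feeder fibroblasts, 5 of 8 for primitive endoderm, 5 of 7 for trophoblast and 2 of 8 for macrophages did so. The ES cell markers moved with the groups. With let-7c 0 of 10 rose and 6 fell (median -0.25), beside 13.9% and 14.8% of all tested genes. With miR-294 5 rose and 1 fell (median 0.12), beside 20.7% and 21.1%. The part of these markers in the members' differences was not tested. In bulk RNA, fewer cells of a type and less RNA per cell cannot be told apart.

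Nrf2, the product of Nfe2l2, is held low by Keap1, which delivers it to a Cul3 ubiquitin ligase, and is released when electrophiles or oxidants modify Keap1. It then pairs with a small Maf protein (Maff, Mafg or Mafk) on antioxidant response elements, short DNA motifs near genes of glutathione, thioredoxin, quinone and haem metabolism. Bach1 pairs with the same small Maf proteins on these elements and represses, most of all at Hmox1, until haem binds to it.

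The mature sequences of the microRNAs named by the mimics are shown because their seeds, bases 2 to 8 in capitals, differ. They are RefSeq's on GRCm38.p6, and the labels name no arm, so the arms known as the guide strands are given. MiR-294 lies at chr7:3220691-3220712 on the + strand. Let-7c has genes at chr16:77599672-77599693 and chr15:85706616-85706637, both on the + strand, with the same mature sequence.
mmu-let-7c-5p: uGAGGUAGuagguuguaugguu
mmu-miR-294-3p: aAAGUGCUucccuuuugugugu

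Promoters of Slc7a11, Maff, Srxn1 and Gclm are shown because these members were higher with let-7c than with mock in every array. Each is the 250 bases before a gene start, read 5′ to 3′ along the gene's strand from RefSeq on GRCm38.p6, and the first of 3 starts is shown for Maff. Capitals mark the core of the antioxidant response element, TGANNNNGC, on either strand, so that a match on the opposite strand reads as its reverse complement. The table held promoters for 7 of the 10 members. Hmox1, Gclc and Gsr had no entry.
Slc7a11 (chr3:50443614-50443863, - strand): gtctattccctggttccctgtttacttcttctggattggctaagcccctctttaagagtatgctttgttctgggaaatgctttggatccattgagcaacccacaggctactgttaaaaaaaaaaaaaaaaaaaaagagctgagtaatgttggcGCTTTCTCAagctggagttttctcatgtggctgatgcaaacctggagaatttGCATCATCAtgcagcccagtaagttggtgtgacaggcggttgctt
Maff (chr15:79346371-79346620, + strand): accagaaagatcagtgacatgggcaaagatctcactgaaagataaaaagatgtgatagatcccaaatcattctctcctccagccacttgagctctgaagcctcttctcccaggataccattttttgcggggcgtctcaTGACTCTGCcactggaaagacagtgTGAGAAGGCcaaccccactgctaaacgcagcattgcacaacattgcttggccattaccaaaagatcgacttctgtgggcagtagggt
Srxn1 (chr2:152105274-152105523, + strand): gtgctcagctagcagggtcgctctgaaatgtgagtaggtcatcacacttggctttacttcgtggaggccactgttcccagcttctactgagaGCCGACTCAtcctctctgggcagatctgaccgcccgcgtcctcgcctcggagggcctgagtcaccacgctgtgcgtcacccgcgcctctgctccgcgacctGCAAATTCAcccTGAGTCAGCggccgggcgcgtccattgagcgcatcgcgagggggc
Gclm (chr3:122245307-122245556, + strand): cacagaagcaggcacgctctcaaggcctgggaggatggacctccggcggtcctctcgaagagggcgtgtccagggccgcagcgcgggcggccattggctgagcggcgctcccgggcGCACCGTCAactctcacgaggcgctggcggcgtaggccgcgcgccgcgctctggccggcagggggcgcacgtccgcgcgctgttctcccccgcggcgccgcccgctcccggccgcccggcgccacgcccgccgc

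The core was found within 250 bases before a start in 6 of those 7 members, Nqo1 being the other one, and in 38.7% of all 27025 genes with a promoter in the table. The narrower form TGACNNNGC, a subset of the core, was found in 4 of 7 members (Maff, Mafg, Gclm and Txnrd1) and in 11.5% of all genes. Maff and Txnrd1 were searched at 3 starts each. For Maff the core was found only at the start shown. For Txnrd1 it was found at all starts but the first, and the narrower form only at the second. A match is a description of these letters, not a shown binding site.

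Hmox1 breaks haem down to biliverdin, iron and carbon monoxide. Its log2 intensity was 12.05, 12.19 and 12.30 with let-7c, 11.63, 11.78 and 11.72 with miR-294, and 10.74, 10.81 and 10.77 with mock. Every let-7c array was above every miR-294 array, and every miR-294 array above every mock array. The difference from mock was 1.41 ± 0.07 with let-7c, a fold of 2.65, and 0.93 ± 0.07 with miR-294, a fold of 1.91 (± is the standard error of a log2 difference, n = 3 per group). The difference between the mimics was 0.47 ± 0.07.

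Slc7a11 encodes the cystine carrier of system xc-, which brings in the cystine from which glutathione is made. It read 7.90, 8.10 and 8.03 with let-7c, 6.90, 7.01 and 7.03 with miR-294, and 7.23, 6.65 and 6.86 with mock. The let-7c arrays stood apart by 1.10 ± 0.12 from mock, while the miR-294 arrays overlapped with mock (0.07 ± 0.12). Mock replicate 1 was the highest of its group, and only 1 of the 3 mock arrays lay above the dim level (6.84 to 6.90 per array). Without 1 array at a time the let-7c difference ranged from 0.97 to 1.26.

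Of the small Maf genes, Maff was higher with let-7c and Mafg was not. Maff read 7.93, 7.99 and 7.74 with let-7c, 7.29, 7.17 and 6.89 with miR-294, and 6.84, 6.94 and 6.71 with mock. The let-7c arrays were above all others, by 1.05 ± 0.10 against mock, and the miR-294 arrays overlapped with mock (0.29 ± 0.10); again 1 mock array of 3 lay above the dim level. Mafg read 10.14, 10.17 and 10.18 with let-7c, 10.42, 10.42 and 10.37 with miR-294, and 10.18, 10.21 and 10.30 with mock. For Mafg it was the miR-294 arrays that stood above both other groups, by 0.17 ± 0.05 against mock and 0.24 ± 0.05 against let-7c, and the let-7c arrays overlapped with mock (-0.07 ± 0.05).

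**Figure D1:**
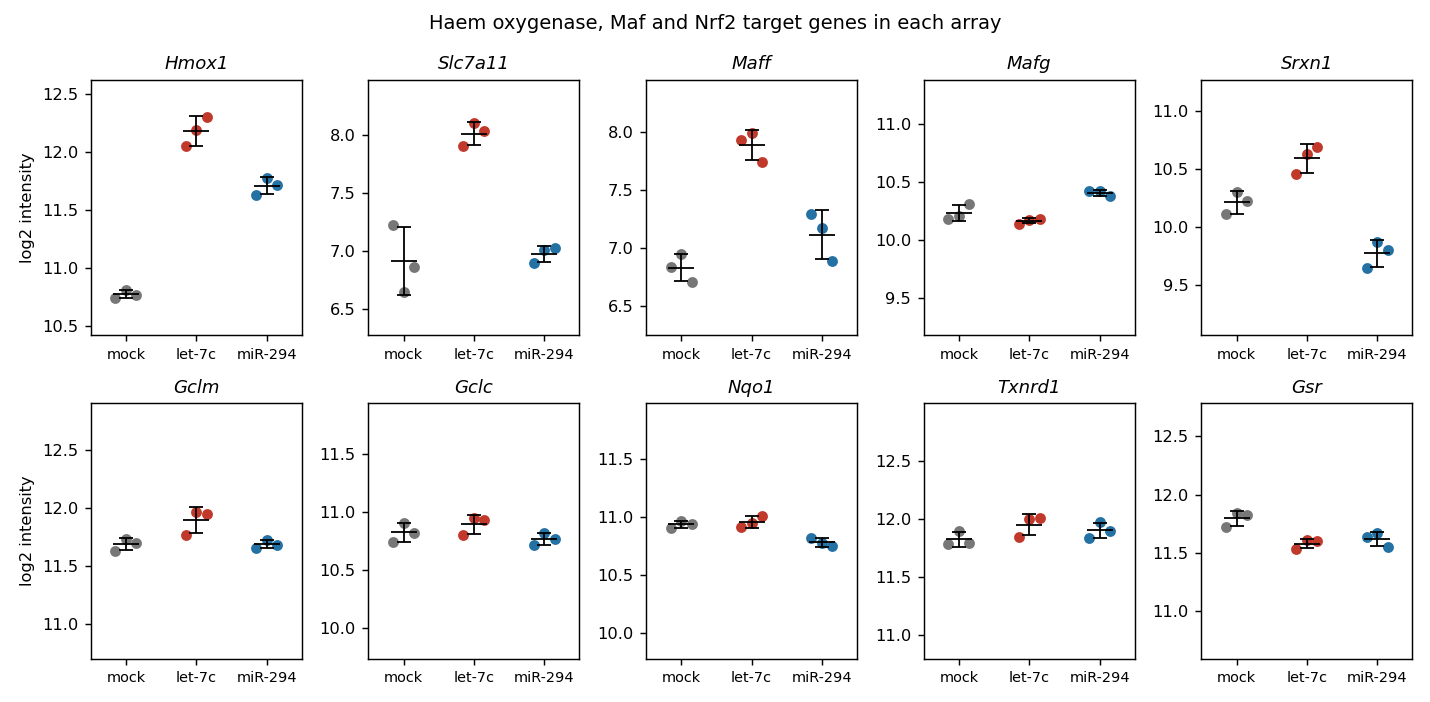
Log2 intensity (vertical axis, the same span in every panel) of the 10 genes in the mock, let-7c and miR-294 groups; points are arrays, and bars are the mean and SD of 3 arrays. Hmox1 is above mock with both mimics, Slc7a11 and Maff stand apart with let-7c, and Srxn1 lies above mock with let-7c and below it with miR-294.

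Srxn1, sulfiredoxin, which repairs overoxidised peroxiredoxins, was the member whose difference from mock had opposite signs with the mimics and no overlap of arrays in either. It read 10.45, 10.62 and 10.69 with let-7c, 9.64, 9.87 and 9.80 with miR-294, and 10.11, 10.30 and 10.22 with mock. It was thus 0.38 ± 0.08 above mock with let-7c and -0.44 ± 0.08 from mock with miR-294, with 0.82 ± 0.08 between the mimics. Txnrd1, the cytosolic thioredoxin reductase, read 11.85 to 12.01 with let-7c, 11.84 to 11.97 with miR-294 and 11.79 to 11.90 with mock. Its groups overlapped in all 3 comparisons (0.13 ± 0.06 for let-7c and 0.08 ± 0.06 for miR-294 against mock). Within replicate numbers, by which the arrays of each mimic pair with those of mock, it was above mock in 3 of 3 pairs with let-7c (0.06, 0.11 and 0.22) and in 3 of 3 with miR-294 (0.05, 0.08 and 0.11). With the number as a block the standard errors fell to 0.04, and Txnrd1 joined the members called with let-7c.

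Gclm and Gclc encode the modifier and catalytic subunits of glutamate-cysteine ligase, the first step of glutathione synthesis. Gclm read 11.77, 11.97 and 11.95 with let-7c, 11.66, 11.73 and 11.68 with miR-294, and 11.64, 11.74 and 11.70 with mock. The let-7c arrays were just above both other groups (0.21 ± 0.06 against mock), which overlapped with each other (0.00 ± 0.06). Gclc read 10.80 to 10.95 with let-7c, 10.72 to 10.81 with miR-294 and 10.74 to 10.90 with mock, and its groups overlapped in all 3 comparisons (0.07 ± 0.06 and -0.06 ± 0.06 against mock). Within pairs Gclc was above mock in 3 of 3 with let-7c (0.06, 0.05 and 0.11) and below it in 3 of 3 with miR-294 (-0.03, -0.09 and -0.05), and with the block it was called against mock with neither. Gsr, which reduces oxidised glutathione, was lower with both mimics: 11.53 to 11.60 with let-7c and 11.55 to 11.67 with miR-294, against 11.72 to 11.84 with mock (-0.22 ± 0.05 and -0.18 ± 0.05). Nqo1, a quinone reductase often used as a marker of Nrf2 activity, read 10.91 to 11.01 with let-7c, overlapping with mock at 10.91 to 10.97 (0.02 ± 0.05, with the sign turned in 1 of 17 alternatives). With miR-294 it was below mock in every array, at 10.75 to 10.82 (-0.16 ± 0.05).

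**Figure D2:**
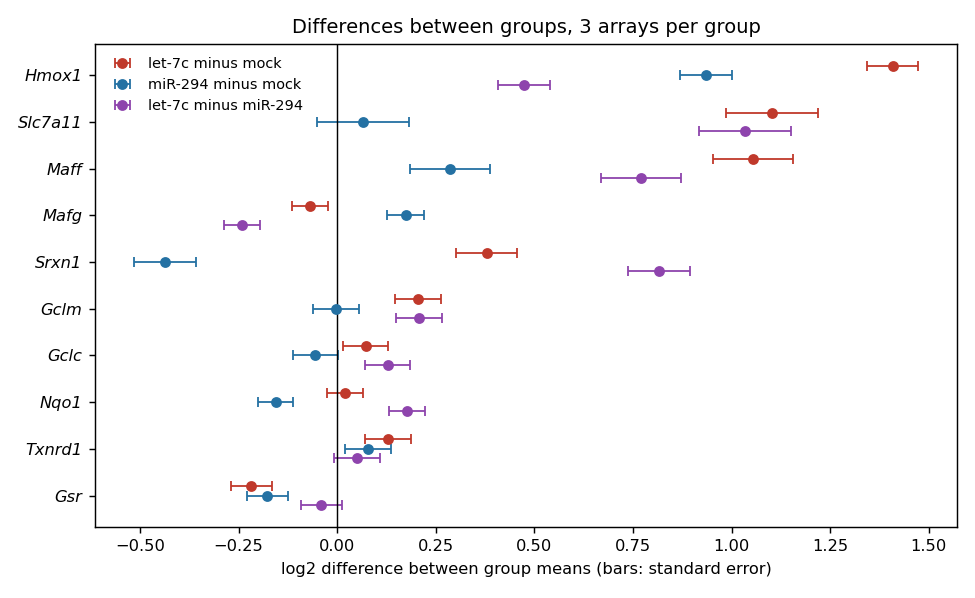
Log2 difference between group means (horizontal axis; bars are standard errors, 3 arrays per group) for the 10 genes in the 3 comparisons. Against mock, 3 of these genes pass 1 log2 unit with let-7c and 0 with miR-294, and Srxn1 lies on opposite sides of 0. Among all tested genes, 4 were called at least 1 log2 unit higher and 19 lower with let-7c, and 4 and 93 with miR-294.

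Set against mock, let-7c gave 3 members with a difference of at least 1 log2 unit and 6 with less than 0.25. For miR-294, 0 members reached 1 and 7 lay under 0.25. Of all tested genes, 84.7% and 75.5% lay under 0.25. Among them 4 were called at least 1 log2 unit higher and 19 lower with let-7c, and 4 and 93 with miR-294. All 10 members were tested, and at a Benjamini-Hochberg adjusted p under 0.05 in the limma fit over 13182 genes, 5 were called higher and 1 lower with let-7c, where 28.7% of all genes were called. With miR-294, 3 were called higher and 3 lower, where 41.9% of all genes were called. The 3 lower calls with miR-294 became 1 without miR-294 replicate 3 or without mock replicate 2. In every alternative that tested them, 4 of the 5 higher calls with let-7c stayed, all but Gclm, and so did the lower call of Gsr. With miR-294 the higher calls of Hmox1 and Mafg and the lower call of Srxn1 stayed, while those of Maff, Nqo1 and Gsr did not. Between the mimics 6 were called higher and 1 lower with let-7c, where 50.8% of all genes were called. Nothing is read from these counts or from which calls stayed. The members were chosen on the same contrasts, and every alternative uses these same arrays. The arrays of let-7c and mock did not overlap for 6 members, where 43.9% of all genes did not. Of these, 5 were higher and 1 lower (22.0% and 21.9% of all genes). Those of miR-294 and mock did not overlap for 5, where 53.8% did not, with 2 higher and 3 lower (28.3% and 25.5% of all genes). Those of the mimics did not overlap for 7, where 57.0% did not, with 6 higher and 1 lower with let-7c (28.7% and 28.3% of all genes). Both comparisons with mock share the same 3 mock arrays.

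Among the regulators, the repressor gene Bach1 fell with let-7c. It read 9.30, 9.38 and 9.27 with let-7c, 9.64, 9.58 and 9.63 with miR-294, and 9.74, 9.78 and 9.73 with mock. The let-7c arrays were the lowest, by 0.43 ± 0.05 below mock (-0.43, adjusted p = 7.36e-05, limma) and 0.30 below miR-294 (-0.30 ± 0.05, adjusted p = 0.000211, limma). With miR-294 Bach1 fell by 0.13 ± 0.05 (adjusted p = 0.0395, limma), a call that ended in 10 of 17 alternatives (0.0229 to 0.127). Bach1 was thus lower in both groups in which Hmox1 was higher; its part in the Hmox1 difference was not tested.

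Nfe2l2 itself did not pass the threshold with let-7c (0.03 ± 0.05, adjusted p = 0.746, limma) and fell with miR-294 (-0.28 ± 0.05, adjusted p = 0.00115, limma). Keap1, the inhibitor of Nrf2, likewise fell only past the threshold with miR-294 (8.77, 8.68 and 8.62, against 9.10, 9.13 and 9.08 with mock; -0.42 ± 0.05, adjusted p = 6.66e-05, limma), and with let-7c gave 0.09 ± 0.05 (adjusted p = 0.225, limma). The direct comparison of the mimics passed for both Nfe2l2 (0.30 ± 0.05, adjusted p = 0.000396, limma) and Keap1 (0.50 ± 0.05, adjusted p = 8.29e-06, limma), higher with let-7c. Sqstm1 encodes p62, an autophagy receptor that binds Keap1 and is also an Nrf2 target. It read 12.89, 12.96 and 12.96 with let-7c, 12.23, 12.13 and 12.09 with miR-294, and 12.34, 12.46 and 12.40 with mock. It rose with let-7c (0.54 ± 0.05, adjusted p = 3.65e-05, limma) and fell with miR-294 (-0.25 ± 0.05, adjusted p = 0.00246, limma).

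The list of Nrf2 regulators and partners held 15 genes, of which 14 were tested; Nfe2 was dim. With let-7c 3 rose and 1 fell (median 0.04), and with miR-294 2 rose and 7 fell (median -0.11). Among all tested genes let-7c gave 13.9% rises and 14.8% falls and miR-294 gave 20.7% and 21.1%, with medians of 0.02 for both. The 7 falls became 4 without miR-294 replicate 1, miR-294 replicate 3, mock replicate 2 or mock replicate 3, and the 2 rises became 1 without miR-294 replicate 1, mock replicate 2 or mock replicate 3. The 3 rises with let-7c became 1 when let-7c replicate 2 or 3 or any 1 mock array was left out. The rises with let-7c of Mafk, the remaining small Maf gene (0.18), and of Rbx1, a Cul3 ligase subunit (0.15), ended in 11 and 7 of 17 alternatives. With miR-294 Rbx1 rose by 0.29 and Nfe2l1, a relative of Nfe2l2, by 0.21, the latter call ending in 4 of 17. Cul3 gave 0.09 ± 0.04 with let-7c and 0.00 ± 0.04 with miR-294 and passed in neither.

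**Figure D3:**
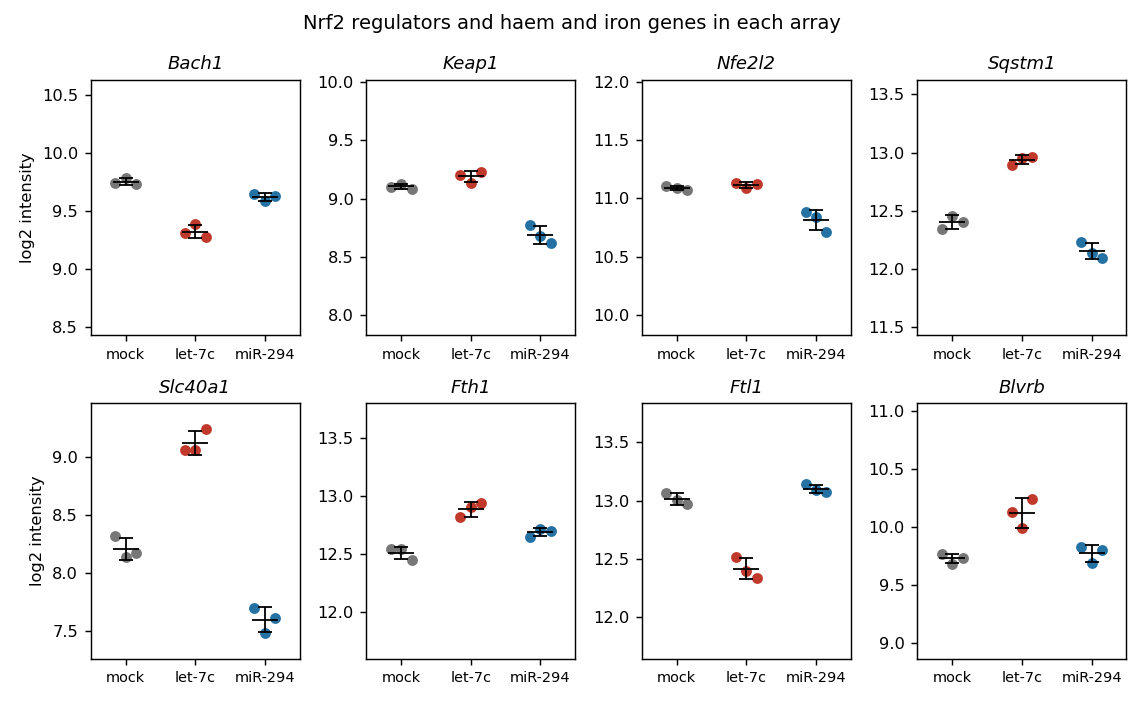
Log2 intensity (vertical axis, the same span in every panel) of 4 regulators and 4 haem and iron genes in the mock, let-7c and miR-294 groups; points are arrays, and bars are the mean and SD of 3 arrays. Bach1 is lowest with let-7c, Keap1 is lowest with miR-294, and Slc40a1 lies above mock with let-7c and below it with miR-294.

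Of the other genes that handle haem and its iron, the one farthest from mock with let-7c was Slc40a1, which encodes ferroportin, the exporter of iron from cells. It read 9.06, 9.06 and 9.24 with let-7c, 7.70, 7.48 and 7.61 with miR-294, and 8.32, 8.13 and 8.17 with mock. It rose with let-7c (0.92 ± 0.07, adjusted p = 1.13e-05, limma) and fell with miR-294 (-0.61 ± 0.07, adjusted p = 6.01e-05, limma). Slc48a1, a haem transporter, followed the same directions (0.43 and -0.33). Slc40a1 and Hmox1 are both abundant in macrophages. The mean log2 level of the 8 macrophage markers was 6.64 to 6.78 with let-7c, 6.67 to 6.81 with miR-294 and 6.63 to 6.65 with mock, with Csf1r, Adgre1, Ptprc, Itgam, Lyz2 and Cd14 dim and Cd68 and Tyrobp above the dim level; their part in these differences was not tested.

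The ferritin genes, for the heavy and light chains of the iron store, moved in opposite directions with let-7c. Fth1 rose from 12.55, 12.55 and 12.46 with mock to 12.82, 12.91 and 12.95 (0.38 ± 0.05, adjusted p = 0.00029, limma). Ftl1 fell from 13.07, 13.01 and 12.97 to 12.51, 12.39 and 12.33 (-0.60 ± 0.05, adjusted p = 2.35e-05, limma). Both have many near-identical gene copies, so these readings are uncertain. With miR-294 Fth1 rose by 0.17 (adjusted p = 0.0152, limma; ended in 3 of 17 alternatives, 0.00088 to 0.0637) and Ftl1 did not pass (0.09 ± 0.05).

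The enzymes that follow haem oxygenase split too. Blvrb, a biliverdin reductase, rose with let-7c (0.39 ± 0.07, adjusted p = 0.00125, limma) and not past the threshold with miR-294 (0.04 ± 0.07). Blvra, the main biliverdin reductase of adult tissue, gave 0.05 ± 0.06 with let-7c and fell with miR-294 (-0.33 ± 0.06, adjusted p = 0.00105, limma). Hmox2, the constitutive haem oxygenase, gave -0.01 ± 0.05 with let-7c, with the sign turned in 3 of 17 alternatives, and fell with miR-294 (-0.26 ± 0.05, adjusted p = 0.00124, limma). Hmox1 was thus the haem oxygenase gene that was higher with miR-294. Of the 16 tested genes of this list, 7 rose and 1 fell with let-7c (median 0.17), beside 13.9% and 14.8% of all genes. The 7 rises became 5 without let-7c replicate 2 or 3 or any 1 mock array, and 4 with every probe set tested. With miR-294 3 rose and 5 fell (median -0.01), beside 20.7% and 21.1%, and without mock replicate 3 there was 1 rise. Fech, the last enzyme of haem synthesis, fell with miR-294 (-0.29); its rise with let-7c (0.19) ended in 7 of 17 alternatives.

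Of 18 tested glutathione genes, 7 rose and 2 fell with let-7c (median 0.13), beside 13.9% and 14.8% of all genes. With miR-294 3 rose and 0 fell (median 0.07), beside 20.7% and 21.1%, and 5 rose with the replicate block. The 7 rises became 4 without mock replicate 1 or mock replicate 3, 3 of them stayed called in every alternative that tested them, and 13.9% of all genes rose. The 2 falls became 1 in 8 of the 9 fits that left out an array, all but that without let-7c replicate 3, where 1 gene fell with miR-294. Gsta3, a glutathione transferase of a family with similar members, rose with let-7c from 8.54, 8.34 and 8.25 to 9.03, 9.13 and 9.01 (0.68 ± 0.07, adjusted p = 7.44e-05, limma). Gss, the second step of glutathione synthesis, rose by 0.27 ± 0.05 (adjusted p = 0.00232, limma). Glrx, glutaredoxin, fell with let-7c from 6.96, 6.95 and 7.15 to 6.26, 6.41 and 6.27, where the latter values are dim (-0.71 ± 0.09, adjusted p = 0.00028, limma). The glutathione peroxidase genes Gpx8 (0.28) and Gpx2 (0.45) rose as well, the Gpx2 call ending in 4 of 17 alternatives. Slc3a2, the heavy chain that carries the Slc7a11 protein to the membrane, gave -0.10 ± 0.05 with let-7c, below the threshold, and rose with miR-294 (0.22 ± 0.05, adjusted p = 0.00354, limma). With miR-294 Gpx1 (0.26) and Ggct (0.18) rose too, the Ggct call ending in 7 of 17 alternatives.

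In the thioredoxin, peroxiredoxin and superoxide list, 2 of 13 tested genes rose (15.4%) and 3 fell (23.1%) with let-7c, with a median of -0.02. Of all genes 13.9% rose and 14.8% fell. With miR-294 1 rose (7.69%) and 4 fell (30.8%), with a median of -0.05, beside 20.7% and 21.1% of all genes. With single arrays left out the let-7c rises ranged from 0 (let-7c replicate 3, mock replicate 1 or mock replicate 3) to 3, and the falls from 1 (let-7c replicate 1 or 2, miR-294 replicate 2 or 3, or mock replicate 2) to 3. Prdx3, the mitochondrial peroxiredoxin, fell most with miR-294, from 10.55, 10.67 and 10.64 to 9.37, 9.45 and 9.39 (-1.22 ± 0.05, adjusted p = 3.91e-08, limma). Txn2, mitochondrial thioredoxin, fell with let-7c (-0.57 ± 0.05, adjusted p = 2.31e-05, limma) and rose with miR-294 (0.36 ± 0.05, adjusted p = 0.000191, limma). Txnip, which binds and inhibits thioredoxin, fell with miR-294 (-0.58), as did the thioredoxin reductase gene Txnrd3 (-0.71). With let-7c the calls of Txnip (0.18), Txnrd3 (-0.21) and Prdx3 (-0.16) ended in 4, 8 and 9 of 17 alternatives. Neither Txn1, cytosolic thioredoxin, nor Prdx1 passed with let-7c (0.04 ± 0.04 and -0.05 ± 0.06) or with miR-294 (0.02 ± 0.04 and -0.06 ± 0.06).

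Among 6 tested genes for enzymes that form NADPH, the reducing power of both systems, Me1, for malic enzyme, rose with let-7c (0.41 ± 0.05, adjusted p = 0.000244, limma) and fell with miR-294 (-0.27 ± 0.05, adjusted p = 0.00179, limma). The counts were 1 rise and 1 fall with let-7c (median 0.06), and 1 rise and 2 falls with miR-294 (median 0.02). Beside this list and the next, 13.9% of all genes rose and 14.8% fell with let-7c, and 20.7% and 21.1% with miR-294. H6pd fell with both mimics (-0.24 and -0.22) and Taldo1 rose with miR-294 (0.12); these calls ended in 6, 9 and 10 of 17 alternatives. G6pdx had no probe set of its own name. Of 12 tested genes for other detoxification and export, 2 rose and 0 fell with let-7c (median 0.00), and 1 rose and 3 fell with miR-294 (median -0.16). With the replicate block 4 rose with let-7c and 7 fell with miR-294. The falls with miR-294 became 6 when miR-294 replicate 1 was left out and 5 when mock replicate 3 was. Ptgr1, which reduces reactive aldehydes and ketones of lipids, rose with let-7c (0.33 ± 0.07, adjusted p = 0.00617, limma). Ephx1, an epoxide hydrolase, fell with miR-294 (-0.92 ± 0.07, adjusted p = 2.12e-06, limma), as did Nqo2, the relative of Nqo1 (-0.32). The calls of Ugdh (0.15 with let-7c, -0.15 with miR-294) and of Panx2 (0.17 with miR-294) ended in 9, 7 and 6 of 17 alternatives.

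Over these 6 lists, 98 genes that are no members had 90 probe sets, of which 79 were tested. The lists were chosen with earlier results of these data known, so nothing is read from their counts and shares. With let-7c 22 rose (27.8%) and 8 fell (10.1%), beside 13.9% and 14.8% of all genes, with a median of 0.09 beside 0.02. With miR-294 11 rose (13.9%) and 21 fell (26.6%), beside 20.7% and 21.1% of all genes, with a median of -0.05 beside 0.02. The lists mix Nrf2 targets with inhibitors and repressors. Keap1, Bach1 and Txnip were among the 21 falls, so these counts do not give a direction for the Nrf2 programme. In every alternative that tested them, 10 of the 22 rises and 4 of the 8 falls with let-7c stayed called, and 5 of the 11 rises and 16 of the 21 falls with miR-294. Single arrays moved the let-7c counts: the rises were 13 without let-7c replicate 3, 14 without mock replicate 1, 14 without mock replicate 2 and 12 without mock replicate 3. The let-7c falls were 4 without let-7c replicate 2 or mock replicate 2, and 5 without let-7c replicate 1, miR-294 replicate 2, miR-294 replicate 3 or mock replicate 1. The miR-294 rises were 6 without miR-294 replicate 1 or mock replicate 3 and 7 without mock replicate 2. Between the mimics 36 were higher and 13 lower with let-7c, beside 26.2% and 24.5% of all genes; the 13 became 8 without miR-294 replicate 1.

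**Figure D4:**
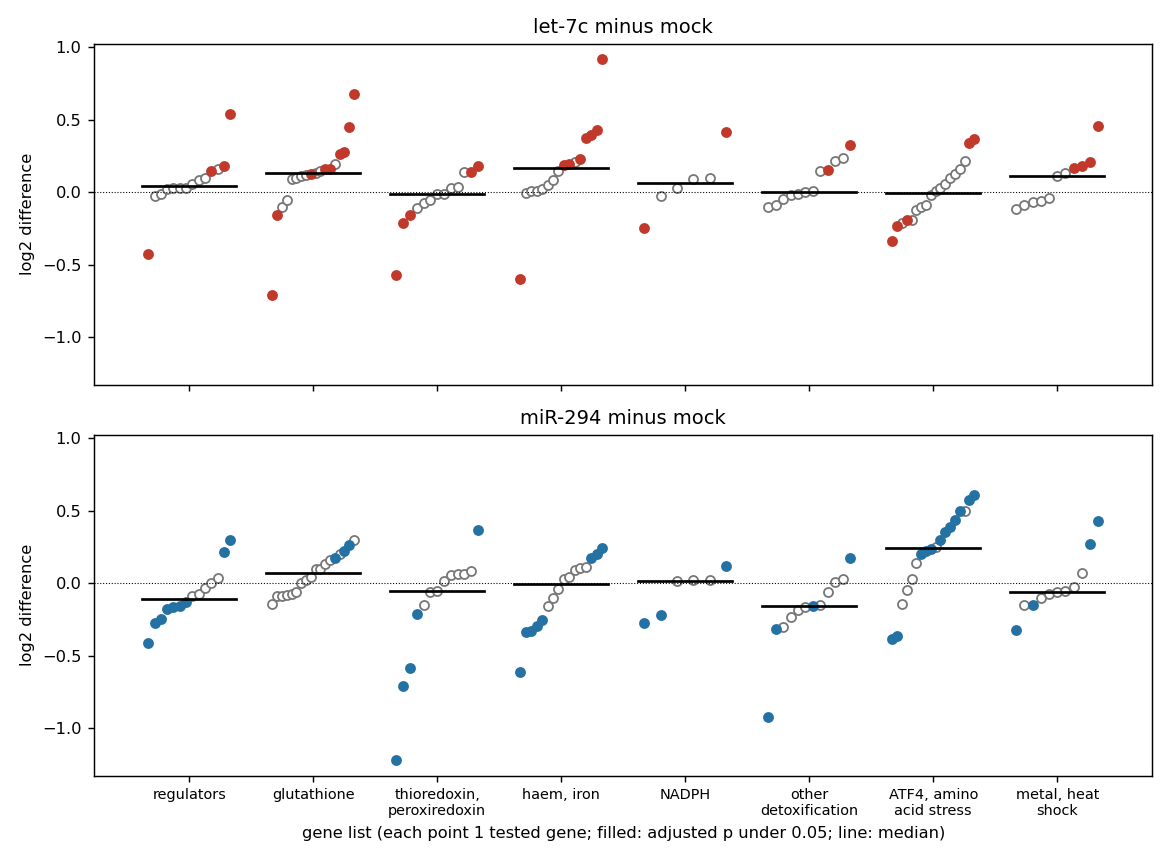
Log2 difference from mock (vertical axis) of every tested gene of 6 Nrf2 pathway lists and 2 neighbouring stress lists (horizontal axis), with let-7c above and miR-294 below; each point is 1 gene, filled points have a limma adjusted p under 0.05, and lines are medians. In the haem and iron list 7 of 16 tested genes rise with let-7c and 3 with miR-294, beside 13.9% and 20.7% of all tested genes. In the ATF4 list 2 of 18 rise with let-7c and 10 with miR-294, beside the same shares. The lists were chosen with earlier results of these data known, so nothing is read from these counts.

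Slc7a11 is also a target of ATF4, the transcription factor of amino acid stress. Of 18 tested genes of that response, among them Slc3a2 of the glutathione list, 2 rose and 3 fell with let-7c (median -0.01). Of all tested genes 13.9% rose and 14.8% fell. With miR-294 10 rose and 2 fell (median 0.24), beside 20.7% and 21.1% of all tested genes. The list was chosen with earlier results of these data known, so nothing is read from its counts. With the replicate block 4 rose and 6 fell with let-7c, and the share of all genes called with the block is not given here. The part of this response in the Slc7a11 difference was not tested. Atf4 itself gave -0.12 ± 0.08 with let-7c (adjusted p = 0.247, limma; 0.0458 with a replicate block and up to 0.597 over the alternatives) and rose with miR-294 (0.35 ± 0.08, adjusted p = 0.00328, limma). With miR-294 Trib3 (0.61), Mthfd2 (0.57), Slc7a5 (0.49) and Chac1 (0.43) rose most, and with let-7c Ddit4 (0.37) and Atf3 (0.34) rose while Shmt2 (-0.34) and Psat1 (-0.23) fell. The Ddit4 call ended in 4 of 17 alternatives.

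Hmox1 had the level order mock, miR-294, let-7c, and the 6 tested genes whose profiles were most like it over the 9 arrays were Wdr45 (Pearson r = 0.99), Bex3 (0.98), Hmgn2 (0.98), Nefm (0.97), Rap2b (0.97) and Slc22a12 (0.96). These values describe 9 arrays that share 3 group means. Wdr45, which encodes an autophagy protein, read 10.19, 10.41 and 10.49 with let-7c, 10.03, 10.26 and 10.10 with miR-294, and 9.40, 9.53 and 9.39 with mock. Nefm, for a neurofilament subunit, read 8.38, 8.35 and 8.32 with let-7c, 8.12, 8.13 and 7.98 with miR-294, and 7.48, 7.45 and 7.23 with mock. None of the 6 is a member or in the Nrf2 lists used here. Among the members, Maff (0.85), Slc7a11 (0.76), Txnrd1 (0.73) and Gclm (0.69) came closest to Hmox1, Gclc (0.34), Srxn1 (0.31), Nqo1 (-0.05) and Mafg (-0.08) had low values, and Gsr ran opposite (-0.85). These values follow the group means. With each group's mean taken away, the order was another: Srxn1 (0.92), Txnrd1 (0.89), Gclm (0.84) and Gclc (0.81) came closest, then Nqo1 (0.52), Gsr (0.48) and Mafg (0.26), with Slc7a11 at 0.07 and Maff at -0.37. For Hmox1, Srxn1, Txnrd1, Gclm and Gclc replicate 1 was the lowest array in all 3 groups. The part of the replicate number in these high values was not tested, nor was what same-numbered arrays share.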

How the data were processed

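RNA of 9 samples was measured on 1-colour microarrays. The submitters' processing notes name GCRMA, which corrects background, normalizes arrays and summarises probe sets; no version or setting is named in the labels or headers used. The authors deposited 1 value per array for 35557 probe sets. These deposited values were read as log2 intensities from their range (2.54 to 14.975), since no header states the scale, and were used without further normalization. Array medians were 7.36 to 7.41, the lowest correlation between arrays of 1 group was 0.995, and no pair shared more than 0.0309% of values. Precision is limited by having 3 arrays per group.

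Gene symbols came from GEO's platform annotation, with 21698 probe sets matched by gene ID to RefSeq (GRCm38.p6). Of all probe sets, 21789 had 1 symbol, 1621 several and 12147 none. The brightest probe set of each of 19938 genes was used, and 13182 genes with at least 3 arrays above their array's 40th percentile were tested. All 9 arrays were fitted in limma 3.58.1 (R 4.3.3; lmFit and eBayes, no trend, 6 residual degrees of freedom), two-sided, with Benjamini-Hochberg adjustment over all tested genes and a threshold of 0.05. The fit was tested on simulated data with arrays drawn independently of each other. That test does not cover deviations shared by arrays of the same replicate number. Replicate numbers come from the labels. Deviations from the group means of same-numbered arrays correlated at 0.13 to 0.42 in all 3 pairs of let-7c with mock. For miR-294 with mock they correlated at 0.27 to 0.36 in all 3 pairs. Let-7c replicate 3 correlated slightly better with mock replicate 2 (0.15) than with mock replicate 3 (0.13). The main fit held group means only, so its standard errors, adjusted p and calls are unpaired. Against mock the numbers were taken as pairs only in the within-pair differences and the replicate block. For let-7c with miR-294 same-numbered arrays correlated at 0.21, 0.25 and 0.03 for replicates 1, 2 and 3. In that comparison the numbers were not taken as pairs.

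The members and gene lists were chosen with earlier results of these data known. Always named were the members and a set of 18 genes; of each list up to 4 called genes with the largest difference from mock were named, and the 6 genes most like Hmox1, leaving out clone names. The alternatives were 8 other settings and leaving out each of the 9 arrays.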

Additional observations from a re-analysis of the deposited data

How the results depend on the processing

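Under 17 alternatives (8 other settings and each of the 9 arrays left out), the differences of Hmox1 from mock stayed between 1.35 and 1.47 with let-7c and between 0.90 and 0.97 with miR-294, and Srxn1 kept opposite signs with the mimics. Slc7a11 with miR-294 changed sign in 1 of 16 alternatives and Gclm with miR-294 in 5 of 17; neither had been called. Slc7a11 and Maff were too dim for the stricter filter (60th percentile), which left 3 members called higher with let-7c in place of 5. With every probe set tested, 3 members were called with miR-294, 1 of them lower, and the other Nrf2 pathway genes called with let-7c were 15 (11 higher, 4 lower), with 7 higher with miR-294 and 7 lower with let-7c than with miR-294. With no filter 19 of these genes were called with let-7c, 4 of them lower. With single arrays left out, members called with let-7c ranged from 5 to 7 (4 to 6 higher), with miR-294 from 4 to 6 (1 to 3 lower). The other pathway genes then called ranged from 18 to 31 with let-7c (12 to 24 higher, 4 to 7 lower), from 6 to 11 for rises with miR-294 and from 8 to 13 for those lower with let-7c than with miR-294. The cause was not tested. Calls over all genes stayed within 1.5 times, from 2694 to 4557 with let-7c. With the replicate block 7 members were called with let-7c (Txnrd1 added) and 37 other pathway genes in place of 30; it changed no other member's call against mock. Between the mimics, where the numbers were not taken as pairs, the block gave 8 members in place of 7 (Gclc added), and over all groups 8 of 9 arrays correlated best with their own number. Slc7a11 and Maff lay above the dim level in 1 of 3 mock arrays each, which limits how precisely their differences are known.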

Other observations

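Hmox1 also answers to heat shock and metals in many cells. Of 11 tested genes of those responses, 4 rose and 0 fell with let-7c (median 0.11), beside 13.9% and 14.8% of all tested genes. The 4 rises became 2 without let-7c replicate 3 or any 1 mock array, and 0 with every probe set tested. With miR-294 2 rose and 2 fell (median -0.06), beside 20.7% and 21.1% of all tested genes. The part of these responses in the Hmox1 differences was not tested. Hspa1a, an inducible Hsp70 gene with the near-identical copy Hspa1b, rose with both mimics (0.46 with let-7c and 0.43 with miR-294); the let-7c call ended with every probe set tested (limma adjusted p = 0.0503). The further let-7c rises were those of Dnajb1 (0.21), the metallothionein gene Mt1 (0.18) and Hspb1 (0.17), which ended in 3, 4 and 6 of 17 alternatives. With miR-294 the chaperone gene Hsph1 rose (0.27), Mtf1, for the metal-responsive transcription factor, fell (-0.32), and Mt1 fell (-0.15), the last call ending in 7 of 17 alternatives.

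Replicate 1 held the lowest value of its group for 9 of the 10 members with let-7c, for 6 with miR-294 and for 8 with mock, beside 39.0%, 33.5% and 36.1% of all tested genes. For Hmox1, Srxn1, Gclm, Gclc and Txnrd1 this was so in all 3 groups, and for Maff in 0, where replicate 3 was the lowest each time. The labels do not say what a replicate number shares across groups.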
